A study of Mus musculus with 18 samples.

Results

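The p53 gene *Trp53* and 9 genes that p53 is known to activate were followed across the 6 conditions of an RNA-Seq experiment on CYC065, an inhibitor of the kinases CDK2 and CDK9. The 10 genes (*Trp53*, *Cdkn1a*, *Mdm2*, *Ccng1*, *Zmat3*, *Sesn2*, *Phlda3*, *Aen*, *Trp53inp1* and *Eda2r*) were chosen by name, as known members of the pathway, out of 55450 annotated mouse genes. Earlier results of these data were known when the genes were chosen. All 10 had a row in the count table, and none was lost to the filter on low counts.

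ED1SQ4 is a murine lung cancer cell line derived from a lung tumor of a transgenic mouse that overexpressed cyclin E, so all 6 conditions share that origin. Cells received vehicle or 0.5 μM CYC065 for 72 hours. For the sort, cells of each treatment were stained with a green DNA dye and separated by DNA content. The paper calls the sorted populations diploid (2N) and polyploid (4N). Libraries labeled as all cells were also made and are called unsorted here. The 6 conditions are therefore vehicle unsorted, CYC065 unsorted, vehicle 2N, vehicle 4N, CYC065 2N and CYC065 4N, each with 3 columns of counts.

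The 3 columns of a condition are titled as replicates, but their library names share a stem and differ only in a part number. The paper identified differentially expressed genes with DESeq2. Their totals differed by 0.0154% to 0.0681%, and over genes with whole counts their chi-square per degree of freedom was 0.991 to 1.02, against 36.5 to 979 for pairs of conditions. Over these genes the columns thus differed by no more than sampling noise. Over genes with fractional counts, *Trp53* among them, the value was 4.353 to 7.596, and counting intervals of such genes may be too narrow. The columns were summed and counted as 1 library per condition, with 54750168 to 62795450 counts each. No test between conditions was possible, no P value is given, and the 95% intervals below cover counting error only. The differences describe these libraries. Levels are CPM, each library's counts scaled to a common total, after TMM scaling, a correction of library size for composition. A gene was called higher or lower when its fold change passed 2 with at least 30 counts in one of the libraries compared. Of the markers checked against the tissue label, 4 of 6 of the lung lineage (*Nkx2-1*, *Sftpc*, *Sftpa1* and *Scgb1a1*) had at most 3 counts in every library, and *Foxj1*, at up to 39 counts, was the only one to reach 30. Of 6 epithelial markers *Epcam* had at most 1 count, and *Krt8*, at up to 43 counts, was the only one to reach 30, with a summed level of 0.593 to 1.5 CPM. All 4 fibroblast markers were counted, with a summed level between 3230 and 7860 CPM. Of 5 leukocyte markers 3 had at most 3 counts in every library, *Ptprc* and *Cd3e* among them, while *Cd68* had 4.065, 3.453 and 3.634 CPM in vehicle unsorted, 2N and 4N cells and 10.86, 23.75 and 18.91 CPM with CYC065. The summed leukocyte level was 3.45 to 23.9 CPM, nearly all from *Cd68*, and its part in the results below was not tested. The 2 erythroid markers had 0 counts.

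p53 is a transcription factor that is held at a low level in unstressed cells by the ubiquitin ligase Mdm2, itself a product of a p53 target gene. When DNA is damaged or transcription is disturbed, p53 protein accumulates and activates genes for arrest of the cell cycle, for repair and for cell death. Tetraploid cells are known to be held in G1 by p53 and its target p21. Since p53 is regulated mainly through the stability of its protein, RNA counts of *Trp53* do not measure its activity.

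p53 binds DNA as a tetramer on a pair of consensus decamers. Promoter windows of 250 bases before to 50 bases after the annotated gene start were searched for the closest such pair with 0 to 13 bases between the decamers. Only decamers with the invariant C and G of the consensus in place were considered, so mismatches and shares of windows hold under this condition. RefSeq (GRCm38.p6) gave windows for 8 of the 10 genes, and none was at hand for *Zmat3* or *Trp53inp1*. The sequences below are those of the 2 genes with the closest matches and of *Aen* and *Trp53*, the first of which had the lowest fold changes of the 10 genes after CYC065. Capitals mark the decamers.

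Cdkn1a, chr17:29090891-29090952 (+): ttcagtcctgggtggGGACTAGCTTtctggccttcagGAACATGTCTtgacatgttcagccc

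Cdkn1a, chr17:29090913-29090962 (+): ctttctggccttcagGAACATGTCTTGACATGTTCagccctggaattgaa

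Ccng1, chr11:40755447-40755496 (-): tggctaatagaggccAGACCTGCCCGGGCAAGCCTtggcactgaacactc

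Aen, chr7:78895922-78895971 (+): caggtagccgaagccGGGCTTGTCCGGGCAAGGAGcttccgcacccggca

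Trp53, chr11:69580269-69580318 (+): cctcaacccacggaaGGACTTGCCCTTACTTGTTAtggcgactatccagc

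*Cdkn1a* and *Aen* had 2 windows each, from 2 annotated starts. The upstream *Cdkn1a* window held, between bases -73 and -32 from the gene start, 2 overlapping pairs with a shared decamer. The first had no mismatch and a spacer of 12 bases, and 0.0731% of the 32851 windows held a pair without mismatch at any of these spacers. The second was adjacent with 1 mismatch, and 0.067% of windows held an adjacent pair with at most 1. The closest pair in the other *Cdkn1a* window had 5 mismatches. The *Ccng1* pair was adjacent with 1 mismatch, at bases -195 to -176, and 0.627% of windows held a pair with at most 1 mismatch at any of these spacers. The *Aen* and *Trp53* pairs were adjacent with 3 mismatches, and 15.6% of windows held a pair with at most 3 mismatches at any of these spacers (1.38% an adjacent one). The closest pairs of *Mdm2*, *Phlda3*, *Sesn2* and *Eda2r* had 4, 5, 6 and 6 mismatches, and 68.7% of all windows held a pair with at most 5. A match describes letters and is no evidence of binding, and a poor match says only that such letters are not in this window.

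After CYC065, *Trp53inp1* was far higher and *Aen* lower in all 3 cell populations, *Trp53* itself was lower in each without passing 2-fold, and *Mdm2* stayed within a narrow band. In unsorted cells *Trp53inp1* and *Eda2r* were called higher and *Cdkn1a* and *Aen* lower, against 25.7% of 14082 genes called in either direction (11.7% higher and 14% lower). In 2N cells *Trp53inp1*, *Sesn2* and *Eda2r* were called higher and *Aen* lower, against 28.2% of 14090 genes (14.9% and 13.3%). In 4N cells *Trp53inp1* and *Sesn2* were called higher and *Aen* lower, against 25.6% of 14183 genes (14.2% and 11.4%). The 4, 4 and 3 of 10 genes called are close to these shares of all genes. The counting interval of the fold change excluded 0 for 9 of the 10 genes in each population, against 82.8%, 84.9% and 84.6% of all genes. The median log2 fold change of the 10 genes was 0.17, 0.06 and -0.04 in unsorted, 2N and 4N cells, beside -0.07, -0.07 and -0.03 over all genes. With scaling by library size alone, the median of all genes moved to 0.07 in 2N and 0.11 in 4N cells, and the share of called genes that were higher moved from 52.8% to 62.9% and from 55.4% to 66.5%. The calls among the 10 genes were as many in each direction under every scaling.

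**Figure D1:**
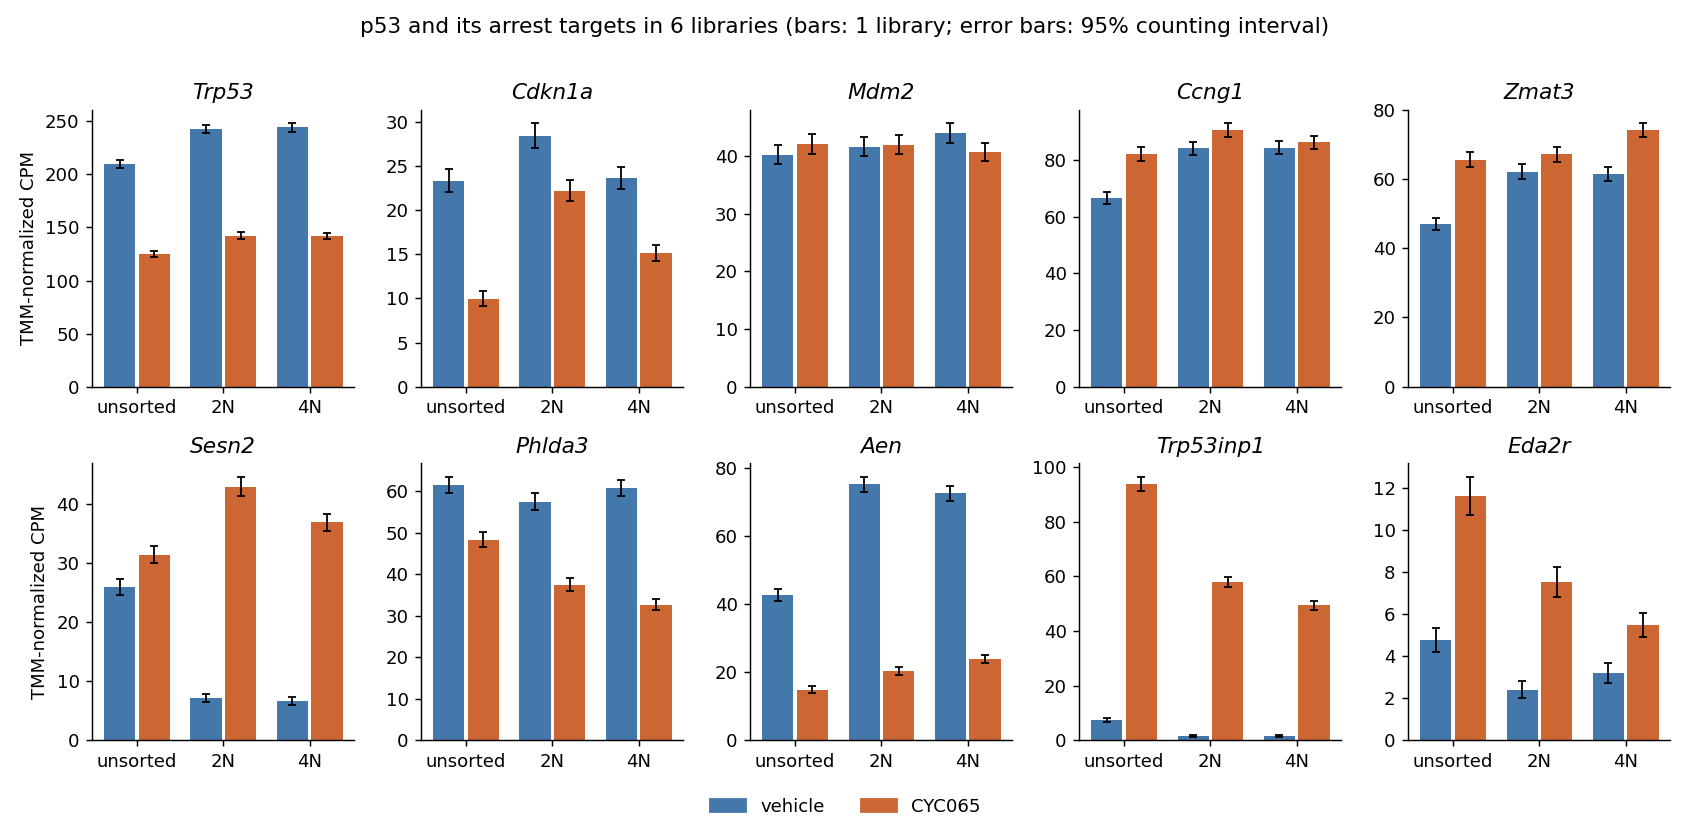
TMM-normalized CPM of each gene in the 6 libraries. Each bar is 1 library of 3 summed columns (blue, vehicle, and orange, CYC065, in unsorted, 2N and 4N cells), and error bars are 95% Poisson counting intervals. *Trp53* is lower in all 3 CYC065 libraries (125.1 to 142.2 CPM) than in the vehicle libraries (209.9 to 244.4 CPM), and *Mdm2* lies between 40.23 and 43.98 CPM throughout.

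*Trp53* (chromosome 11, 69580359-69591873, plus strand, mm10) had 209.9 CPM in vehicle unsorted, 242.7 in vehicle 2N and 244.4 in vehicle 4N cells. With CYC065 it had 125.1 CPM in unsorted, 142.2 in 2N and 142.1 in 4N cells. The 3 vehicle libraries lay above the 3 CYC065 libraries without overlap. The fold changes were 1.68, 1.71 and 1.72 lower in unsorted, 2N and 4N cells, with log2 values of -0.75 (95% counting interval -0.79 to -0.70), -0.77 (-0.81 to -0.73) and -0.78 (-0.82 to -0.75). The change in sorted cells differed from that in unsorted cells by -0.02 (-0.08 to 0.03) for 2N and -0.04 (-0.09 to 0.02) for 4N on the log2 scale. This nearness depended on the scaling, since library size alone gave -0.80 in unsorted, -0.63 in 2N and -0.64 in 4N cells. DNA content made little difference, at 0.01 (-0.02 to 0.04) for 4N versus 2N in vehicle and -0.00 (-0.04 to 0.04) in CYC065-treated cells. Of the 50-base words in its transcripts, 3.95% also occur in another gene, the pseudogene *Trp53-ps* among them, so that a small part of these reads may be shared.

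*Mdm2*, which encodes the ligase that degrades p53 (chromosome 10, 117688875-117710758, minus strand), had 40.23 and 42.11 CPM in vehicle and CYC065 unsorted, 41.60 and 41.98 in 2N, and 43.98 and 40.67 in 4N cells. No condition stood apart. The highest level was 1.09 times the lowest, and 0.28% of the 9271 genes with at least 300 counts in every library spanned less. This ratio was 1.14 to 1.19 under the other scalings. The log2 fold changes after CYC065 were 0.07 (-0.02 to 0.15) in unsorted, 0.01 (-0.07 to 0.10) in 2N and -0.11 (-0.19 to -0.03) in 4N cells, and the last turned to 0.03 with scaling by library size alone. Over the 6 libraries, the genes with the profile most like that of *Mdm2* among 9263 were *Rab14*, *Eps15* and *Vps8*, with a root mean square difference of 0.026, 0.026 and 0.028 on the centered log2 scale.

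*Cdkn1a* encodes p21, the inhibitor of cyclin-dependent kinases through which p53 arrests the cell cycle, and lies on chromosome 17 (29090976-29100727, plus strand). Its 3 columns held 418, 436 and 485 counts in vehicle unsorted and 194, 174 and 179 in CYC065 unsorted cells. They held 534, 517 and 548 in vehicle 2N and 436, 428 and 435 in CYC065 2N cells. They held 449, 483 and 452 in vehicle 4N and 319, 368 and 335 in CYC065 4N cells. Every CYC065 library was below the vehicle library of the same population, and CYC065 unsorted cells were lowest of all.

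In CPM, *Cdkn1a* had 23.36 in vehicle unsorted, 28.46 in vehicle 2N and 23.61 in vehicle 4N cells, beside 9.937, 22.21 and 15.10 with CYC065. It was 2.35-fold lower with CYC065 in unsorted cells (log2 -1.23, -1.38 to -1.09), 1.28-fold lower in 2N (-0.36, -0.46 to -0.25) and 1.56-fold lower in 4N cells (-0.64, -0.76 to -0.53), of which the last 2 did not pass 2-fold. The change in 2N cells was smaller than that in unsorted cells by 0.88 on the log2 scale (0.70 to 1.05). Of the 50-base words in *Cdkn1a* transcripts, 8.49% also occur in another gene, chiefly *AC167363.2* on the opposite strand, which overlaps 273 of its exon bases. *Zfp367*, *Fam220a* and *Nup62* had the most similar profiles over the 6 libraries, with root mean square differences of 0.069, 0.170 and 0.176.

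*Ccng1* and *Zmat3* changed little. *Ccng1* encodes cyclin G1, which takes part in the feedback between p53 and Mdm2 (chromosome 11, 40748552-40755311, minus strand). It had 66.52 CPM in vehicle unsorted cells and 82.15 to 90.63 CPM in the other 5 libraries, so that the vehicle unsorted library alone stood apart. Its log2 fold changes with CYC065 were 0.30 (0.24 to 0.37) in unsorted, 0.11 (0.05 to 0.16) in 2N and 0.03 (-0.02 to 0.09) in 4N cells. *Zmat3*, the gene of an RNA-binding zinc finger protein (chromosome 3, 32334792-32366014, minus strand), likewise had its lowest level in vehicle unsorted cells, at 46.96 CPM. It had 62.24 and 61.41 CPM in vehicle 2N and 4N cells, and 65.63, 67.22 and 74.20 CPM in CYC065 unsorted, 2N and 4N cells. Its log2 fold changes were 0.48 (0.41 to 0.56), 0.11 (0.04 to 0.18) and 0.27 (0.21 to 0.33) in unsorted, 2N and 4N cells.

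*Sesn2* encodes Sestrin 2, an inhibitor of mTORC1 that is also induced by amino acid and endoplasmic reticulum stress (chromosome 4, 132492032-132510501, minus strand). Its columns held 148, 120 and 129 counts in vehicle 2N and 122, 120 and 144 in vehicle 4N cells. They held 845, 822 and 847 in CYC065 2N and 806, 875 and 820 in CYC065 4N cells. In unsorted cells they held 524, 468 and 493 with vehicle and 606, 560 and 564 with CYC065. The sorted vehicle libraries were low, and the other 4 libraries, vehicle unsorted among them, were high.

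*Sesn2* thus rose from 7.066 to 42.99 CPM in 2N cells, 6.08-fold (log2 2.60, 2.45 to 2.76), and from 6.585 to 36.95 CPM in 4N cells, 5.61-fold (2.49, 2.33 to 2.65). In unsorted cells it had 25.91 CPM with vehicle and 31.43 CPM with CYC065 (log2 0.28, 0.18 to 0.38). The log2 change in unsorted cells was smaller than that in 2N cells by 2.33 (2.14 to 2.51) and that in 4N cells by 2.21 (2.03 to 2.39). *Sesn2* and *Trp53inp1* passed 2-fold in this difference for both sorted populations, 2 of 10 genes in each, against 12.1% and 12.8% of all genes. Sorted cells were stained and passed through the sorter. The unsorted libraries are labeled only as all cells, and the paper does not describe how those cells were handled. Handling and DNA content thus cannot be told apart in a comparison of the unsorted with the sorted libraries.

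*Phlda3*, whose product inhibits the kinase Akt (chromosome 1, 135766119-135769136, plus strand), had 61.43, 57.47 and 60.73 CPM in vehicle unsorted, 2N and 4N cells and 48.30, 37.36 and 32.56 CPM with CYC065. All 3 CYC065 libraries lay below all 3 vehicle libraries. The log2 fold changes were -0.35 (-0.42 to -0.27), -0.62 (-0.70 to -0.54) and -0.90 (-0.98 to -0.82) in unsorted, 2N and 4N cells, none past 2-fold.

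*Aen* encodes an exonuclease that acts in apoptosis (chromosome 7, 78895854-78911209, plus strand). Its columns held 826, 799 and 820 counts in vehicle unsorted and 300, 258 and 255 in CYC065 unsorted cells. They held 1440, 1380 and 1409 in vehicle 2N and 411, 384 and 391 in CYC065 2N cells. They held 1384, 1468 and 1406 in vehicle 4N and 526, 554 and 540 in CYC065 4N cells. The vehicle and CYC065 libraries did not overlap, and sorted cells were higher than unsorted cells within each treatment.

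The fall of *Aen* was 2.89-fold in unsorted cells (42.65 to 14.77 CPM, log2 -1.53, -1.65 to -1.42). It was 3.71-fold in 2N (75.27 to 20.28 CPM, -1.89, -1.99 to -1.80) and 3.03-fold in 4N cells (72.64 to 23.93 CPM, -1.60, -1.69 to -1.52). *Aen* was the lowest of the 10 genes by fold change in each population, as the plot of fold changes by gene shows.

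**Figure D2:**
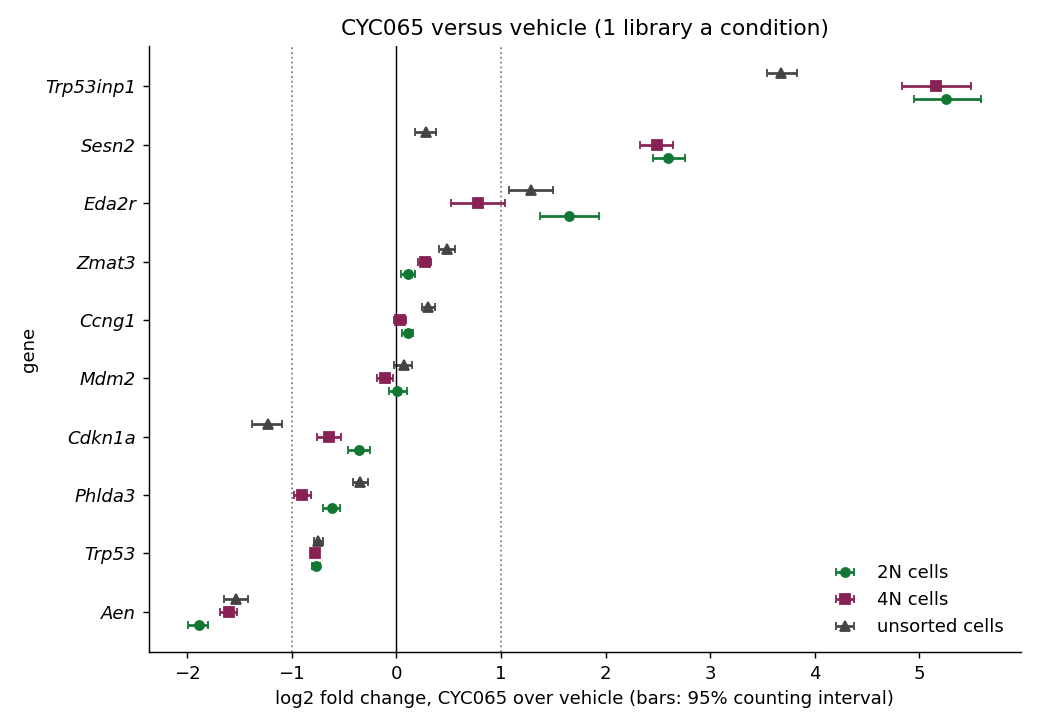
Log2 fold change of CYC065 over vehicle for each gene in 2N (green circles), 4N (purple squares) and unsorted cells (gray triangles), 1 library a condition, with 95% counting intervals as bars and dotted lines at 2-fold. *Trp53inp1* lies between 3.68 and 5.26 and *Aen* between -1.89 and -1.53, and *Sesn2* is at 2.60 and 2.49 in 2N and 4N cells and at 0.28 in unsorted cells.

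*Trp53inp1* encodes a nuclear protein that promotes phosphorylation of p53 and also takes part in autophagy (chromosome 4, 11156431-11174379, plus strand). Its columns held 141, 142 and 138 counts in vehicle unsorted and 1733, 1718 and 1726 in CYC065 unsorted cells. They held 25, 31 and 29 in vehicle 2N and 1111, 1147 and 1128 in CYC065 2N cells. They held 28, 26 and 27 in vehicle 4N and 1118, 1148 and 1082 in CYC065 4N cells. All 3 CYC065 libraries were far above all 3 vehicle libraries, and within each treatment unsorted cells were highest.

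*Trp53inp1* rose 12.8-fold in unsorted cells, from 7.345 to 94.05 CPM (log2 3.68, 3.54 to 3.83). It rose 38.2-fold in 2N cells, from 1.513 to 57.90 CPM (5.26, 4.95 to 5.59), and 35.7-fold in 4N cells, from 1.382 to 49.47 CPM (5.16, 4.84 to 5.50). By fold change it ranked 118 of 14082 genes in unsorted, 59 of 14090 in 2N and 60 of 14183 in 4N cells. Its level in vehicle cells was lower after sorting by 4.85-fold in 2N and 5.31-fold in 4N cells, and the change in unsorted cells was smaller than in 2N cells by 1.58 (1.24 to 1.92) on the log2 scale.

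*Eda2r*, the gene of a receptor of the tumor necrosis factor receptor family (chromosome X, 97333840-97377216, minus strand), passed 2-fold in unsorted and 2N cells and not in 4N cells. Its columns held 81, 98 and 93 counts in vehicle unsorted and 221, 214 and 204 in CYC065 unsorted cells. They held 50, 35 and 49 in vehicle 2N and 149, 148 and 142 in CYC065 2N cells. They held 57, 64 and 65 in vehicle 4N and 133, 107 and 129 in CYC065 4N cells. The 3 CYC065 libraries, at 11.61, 7.507 and 5.452 CPM in unsorted, 2N and 4N cells, lay above the 3 vehicle libraries, at 4.745, 2.385 and 3.173 CPM. *Eda2r* was 2.45-fold higher in unsorted (log2 1.29, 1.08 to 1.5), 3.15-fold higher in 2N (1.65, 1.37 to 1.94) and 1.72-fold higher in 4N cells (0.78, 0.52 to 1.04).

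Per kilobase of exon, on which levels of different genes may be compared, *Trp53* was the highest of the 10 genes in 5 libraries, at 35.1 to 60.4 CPM per kb, and lay beside *Phlda3* in CYC065 unsorted cells, at 30.9 and 31.0 CPM per kb, within counting error. *Phlda3* ranged from 20.9 to 39.4 and *Ccng1* from 18.9 to 25.8 CPM per kb, with *Ccng1* above *Phlda3* in CYC065 2N and 4N cells. *Trp53inp1* moved most in this order, from the lowest at 0.234 and 0.213 CPM per kb in vehicle 2N and 4N cells to 14.5 CPM per kb in CYC065 unsorted cells, behind *Phlda3*, *Trp53* and *Ccng1*. *Eda2r* was lowest in the other 4 libraries, at 0.805 to 1.97 CPM per kb. *Mdm2* stayed between 7.91 and 8.65 CPM per kb.

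4N and 2N cells of one treatment were compared next. The sort was by DNA content alone, so polyploidy and cell cycle phase cannot be told apart in this comparison. None of the 10 genes passed 2-fold in vehicle-treated cells, where 2.72% of 13365 genes did, or in CYC065-treated cells, where 3.63% of 14180 did. In vehicle-treated cells the counting interval lay apart from 0 for 3 of the 10 genes, against 53.8% of all genes. In CYC065-treated cells it lay apart from 0 for 8 of the 10, against 55.7%.

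*Cdkn1a* was lower in 4N than in 2N cells under both treatments, by a log2 of -0.27 (-0.37 to -0.16) in vehicle and -0.56 (-0.68 to -0.44) in CYC065-treated cells. The difference between these ratios was -0.29 (-0.44 to -0.13). *Eda2r* was higher in 4N cells with vehicle (0.41, 0.08 to 0.74) and lower with CYC065 (-0.46, -0.67 to -0.26). The difference was -0.87 (-1.25 to -0.50), and -1.07 to -0.60 when 1 of the 3 columns was left out, of which the lowest came without column 1. Leaving out a column drops part of the counts of 1 library and measures no spread between cultures. *Phlda3* went the same way in smaller steps, 0.08 (0.01 to 0.15) with vehicle and -0.20 (-0.28 to -0.11) with CYC065. *Aen* and *Zmat3* were higher in 4N cells with CYC065, by 0.24 (0.13 to 0.35) and 0.14 (0.08 to 0.20). *Trp53inp1* and *Sesn2* were lower there, by -0.23 (-0.30 to -0.16) and -0.22 (-0.30 to -0.14). In the difference between the 2 ratios, 0 of 10 genes passed 2-fold against 7.31% of 14482 genes.

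**Figure D3:**
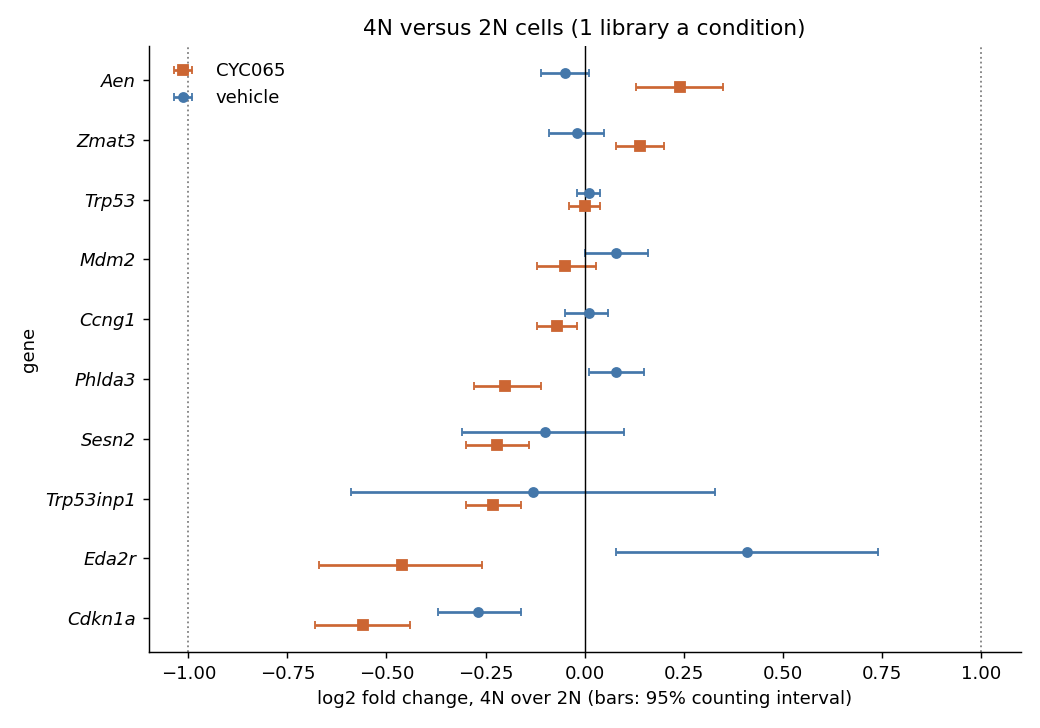
Log2 fold change of 4N over 2N cells for each gene with vehicle (blue circles) and CYC065 (orange squares), 1 library a condition, with 95% counting intervals as bars and dotted lines at 2-fold. All 20 points lie within 2-fold. *Cdkn1a* is lowest under CYC065 at -0.56, and *Eda2r* is at 0.41 with vehicle and -0.46 with CYC065.

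An unsorted culture that mixes only the 2 sorted populations, handled alike, would have a level between theirs. In vehicle-treated cells, 7 of the 10 genes had an unsorted level outside both sorted levels with the counting intervals apart, as did 53.6% of 13812 genes (29.6% below and 24% above). *Trp53*, *Ccng1*, *Zmat3* and *Aen* lay below and *Sesn2*, *Trp53inp1* and *Eda2r* above. In CYC065-treated cells it was again 7 of 10, against 42.7% of 14395 genes (21.7% below and 21% above), with *Trp53*, *Cdkn1a*, *Sesn2* and *Aen* below and *Phlda3*, *Trp53inp1* and *Eda2r* above. For *Cdkn1a*, CYC065 2N cells had 2.24-fold more than CYC065 unsorted cells (log2 1.16, 1.02 to 1.31). Such an excess in either direction was thus common among all genes. Other cells in the culture, fewer cells of a kind, less RNA per cell and the sort itself cannot be told apart in bulk RNA.

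The other genes of the pathway were taken from lists of p53 regulators and of p53 targets by function, chosen with earlier results of these data known. Beside the counts of each list stand the shares of all genes called higher and lower with CYC065, which were 11.7% and 14% in unsorted, 14.9% and 13.3% in 2N, and 14.2% and 11.4% in 4N cells, and the medians of all genes, which were -0.07, -0.07 and -0.03. Among 18 regulators, 2 were called higher and 5 lower with CYC065 in unsorted, 1 and 5 in 2N, and 1 and 3 in 4N cells, with medians of 0.02, 0.05 and 0.10. *Cdkn2a* was the regulator higher in all 3 populations, at a log2 of 1.11 in unsorted, 1.22 in 2N and 1.11 in 4N cells. Its count covers transcripts of both p16 and p19ARF, the latter an inhibitor of Mdm2. *Trim24*, named after its value was seen, was the other in unsorted cells. *Atm* and *Atr*, which encode kinases that signal DNA damage to p53, were lower, *Atm* by -2.01, -2.19 and -1.73 and *Atr* by -1.30, -1.26 and -0.98, the last not past 2-fold. *Kat5* in all 3 populations and *Chek1* in unsorted and 2N cells, named after their values were seen, were also called lower. *Mdm4*, the partner of *Mdm2*, had 0.02, 0.25 and 0.51, and *Ppm1d*, the gene of a phosphatase that acts on p53, had -0.09, 0.36 and 0.20, none past 2-fold.

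Of the p53 family, *Trp63* had 0 counts in vehicle and 54 in CYC065 unsorted cells, 18.7-fold against a floor of 3 counts over the library, and the counting interval of the ratio had a lower limit of 14.7. It went from 1 to 50 counts in 2N cells, a ratio of 48 with a counting interval of 8.23 to 1930, and from 3 to 26 counts in 4N cells, a ratio of 7.51 (2.3 to 38.7). These are few counts beside the 6886 of *Trp53* in CYC065 unsorted cells. *Trp73* had 0 or 1 counts in every library.

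Among the apoptosis targets, 8 of 10 were counted well enough, and *Perp* and *Pmaip1* were under 30 counts. In unsorted cells *Fas*, the gene of a death receptor, was higher (log2 1.5) and *Pidd1* lower (-1.43). In 2N cells *Bbc3*, which encodes the BH3-only protein Puma, was higher (1.59) and *Pidd1* lower (-1.34). In 4N cells *Bbc3* was higher (1.14) and none was lower. *Bbc3* had 0.24 in unsorted cells, and *Fas* 0.87 and 0.80 in 2N and 4N cells. The medians of the list were -0.04, -0.12 and -0.24 in unsorted, 2N and 4N cells.

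Among 12 targets in repair and metabolism, 4 were higher in each population, where 11.7%, 14.9% and 14.2% of all genes were, and these were the same genes: *Ephx1*, *Fdxr*, *Ddb2* and *Sesn1*. *Ephx1*, the gene of microsomal epoxide hydrolase, had 1.16, 1.82 and 1.66 in unsorted, 2N and 4N cells, and *Fdxr*, that of ferredoxin reductase, had 1.21, 1.52 and 1.34. *Ddb2* and *Sesn1*, named after their values were seen, lay between 1.03 and 1.48. *Ak1*, the gene of an adenylate kinase, was lower in all 3, by -1.41, -1.72 and -2.14. *Rrm2b* in 2N and 4N cells and *Triap1* in 2N cells were the others called lower, also named after their values were seen. Of the 50-base words of *Ddb2* and *Rrm2b*, 17.8% and 10.7% also occur in other genes. The medians of the list were 0.25, 0.15 and 0.06.

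Among the other growth control targets, 12 of 14 were counted well enough, with *Gdf15* and *Rprm* under 30 counts. In unsorted cells 4 were higher and 2 lower, and in 2N and in 4N cells 3 were higher and 2 lower, to be read against the shares of all genes given for the regulators. *Gadd45a*, whose product responds to growth arrest and DNA damage, had 1.57, 2.98 and 2.64 in unsorted, 2N and 4N cells, although 15.6% of its 50-base words occur in other genes. *Btg2*, which encodes an antiproliferative protein, had 2.05, 2.18 and 2.08. *Psrc1*, whose product binds the mitotic spindle, had -1.62, -1.06 and -0.50. It was also the gene of the lists higher in 4N than in 2N cells with both vehicle (1.01) and CYC065 (1.57). The others called, named after their values were seen, were *Sfn*, higher in all 3 populations at no more than 61 counts, *Cd82*, higher in unsorted cells, *Lif*, lower in all 3, *Rps27l*, lower in 4N cells, and *Ptprv*, lower in 4N than in 2N cells with CYC065 (-1.14). The list medians were 0.16, 0.45 and 0.03.

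**Figure D4:**
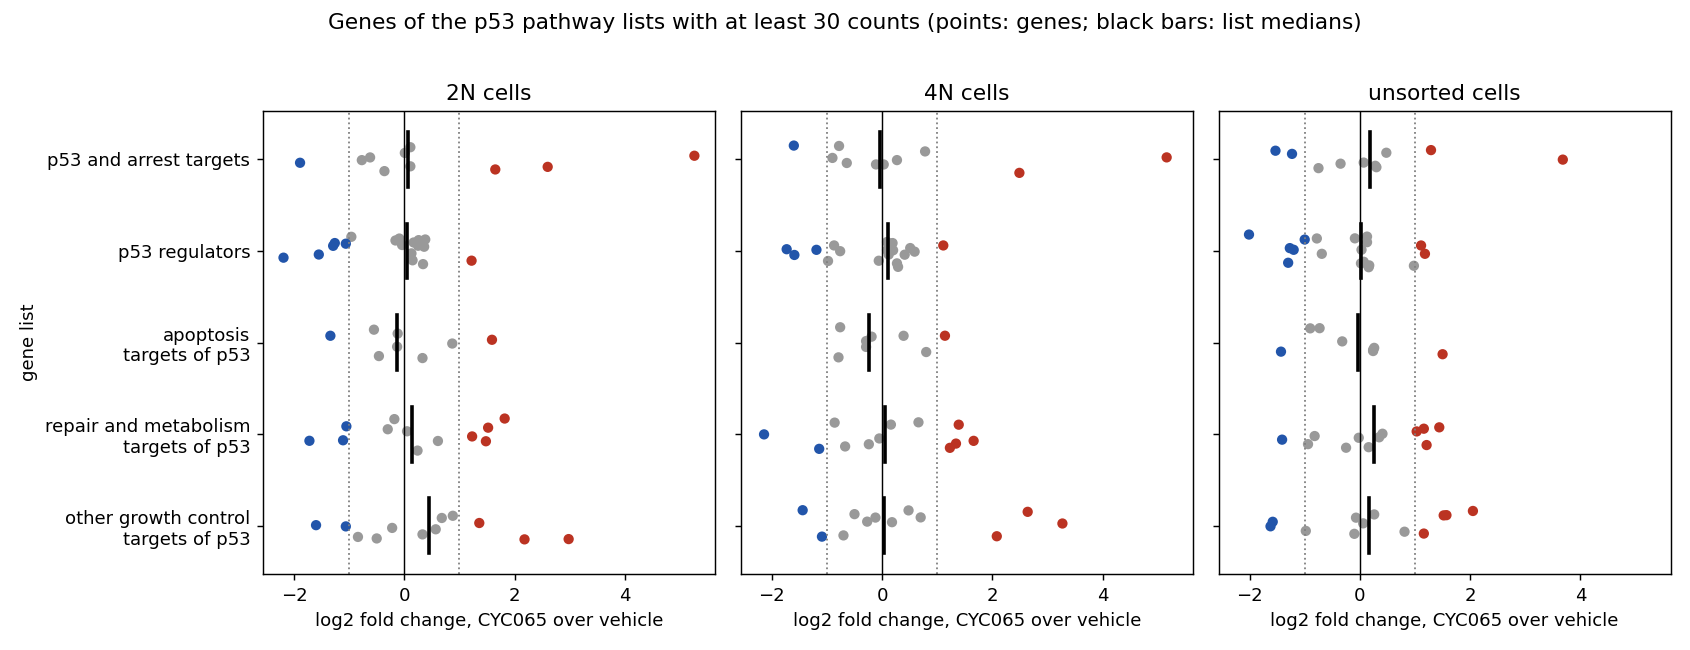
Log2 fold change of CYC065 over vehicle for genes of the p53 pathway with at least 30 counts, by list, in 2N, 4N and unsorted cells, 1 library a condition. Points are genes (red, higher and blue, lower by over 2-fold, and gray, neither), vertically jittered, and black bars are list medians. The p53 family list is not shown. Each list shown holds genes on both sides of 0, and the medians of these lists lie between -0.24 and 0.45.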

How the data were processed

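Stranded, ribosome-depleted total RNA libraries of ED1SQ4 cells were sequenced by the authors. Per the submitters' processing notes, bcl2fastq 2.17, cutadapt 1.18, STAR 2.7.0f and RSEM 1.3.1 were used with mm10. The paper's methods give other versions of bcl2fastq and RSEM. The deposited values are RSEM expected counts per GENCODE M21 gene, not normalized; 9.66% of genes are fractional, because RSEM divides reads between similar genes. The strand setting of RSEM is not given in the sources used here.

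Columns, with totals of 18246493 to 20933929, were summed per condition and rounded to whole counts, and 0 columns were left unused. TMM factors came from all 6 libraries (edgeR 4.0.16, R 4.3.3), with a prior count of 0.125 in folds. Intervals were exact binomial for folds, exact Poisson for levels and Wald for differences of folds, at 95%. A gene entered a comparison with at least 30 counts in one library. Counting steps were tested on simulated data. Alternatives were other scalings (DESeq2 1.42.0 size factors among them), filters, thresholds, a prior count of 2, an assumed biological coefficient of variation of 0.2, left-out columns, and edgeR and DESeq2 on the 3 columns, with and without a replicate block. Promoters were searched with Python 3.11.15.

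The genes and lists were chosen with earlier results of these data known. The text names all 10 genes, up to 3 genes per list with the largest change and at least 100 counts in the higher library, *Mdm4*, *Cdkn2a*, *Ppm1d*, *Trp63* and *Trp73*, and the 3 genes most like *Cdkn1a* and *Mdm2*. One gene that this rule names and one marker are not reported here. Comparisons of unsorted with sorted cells and the decamer search were chosen after seeing the data.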

Additional observations from a re-analysis of the deposited data

Results flagged for a closer look

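The 4N versus 2N difference of *Eda2r* and *Phlda3* went in opposite directions with the 2 treatments. *Eda2r* had a log2 fold change of 0.41 with vehicle and -0.46 with CYC065. *Phlda3* had 0.08 with vehicle and -0.20 with CYC065. With 1 library a condition, these differences between treatments were not tested against replicates.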

How the results depend on the processing

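Depth limits most of the 10 genes little, since their lowest summed count was 81, but spread between cultures was not measured. *Eda2r*, at 134 and 186 counts in vehicle 2N and 4N cells, is an exception, since its call in the 4N/2N ratios changed when a column was left out. The calls of the 10 genes with CYC065 kept their number under the other scalings and a prior count of 2, and no called fold change reversed. With a threshold of 1.5-fold, 5 of the 10 genes passed in unsorted, 6 in 2N and 7 in 4N cells with CYC065, in place of 4, 4 and 3. Among all genes, 6665 of 14082, 7117 of 14090 and 6805 of 14183 passed there. In the difference of 4N/2N ratios 1 of the 10 passed in place of 0, against 2378 of 14482 genes. Leaving out each column gave 0 to 1 genes there, the 1 being *Eda2r* at -1.07 without column 1. Over all genes, the 1.5-fold threshold gave 6665 (unsorted), 7117 (2N) and 6805 (4N) with CYC065, 1232 (vehicle) and 1388 (CYC065) for 4N versus 2N, and 2378 for the ratios, in place of 3619, 3970, 3635, 364, 515 and 1058. Without a count filter these were 10475, 11768, 11126, 5629, 7609 and 10232. At least 100 counts left 120, 216 and 313 for the last 3, and an interval wholly past 2-fold left 70, 162 and 119. For the ratios, a coefficient of variation of 0.2 gave 356 and DESeq2 on the columns 343. edgeR on the columns gave 542, and 531 with a replicate block. The edgeR and DESeq2 tests take as replicates the columns counted here as 1 library, so they measure no spread between cultures. The columns share only a number, and the block changed no call of the 10 genes.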
